A study of Homo sapiens with 9 samples.

Results

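The genes described here encode chromatin-modifying enzymes other than LSD1, with their closest complex partners, and were chosen as a list of 49 gene symbols looked up in the gene column of both deposited expression tables. Of the 49 symbols, 47 had 1 locus in each table, and 45 of these had a value in all 9 libraries, from tables of 36119 loci (knockout) and 35856 loci (treatment). RING1 and EHMT2 were skipped because each is listed at 3 loci, 2 of them on haplotype sequences listed at 0. DNMT3B had no value in the DMSO, MC_2580 and RA 0.01 uM libraries, and HDAC9 had none in the MC_2580 library, because the authors' tests of those rows had a failed status. HDAC11 stayed under 1 FPKM (fragments mapped to a gene, scaled to its length and to all mapped fragments) in every library and was not tested, which left 46 genes for the comparison of knockout with wild-type cells.

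RNA was sequenced from NB4, a human cell line of acute promyelocytic leukaemia in which the PML-RARA fusion is present and retinoic acid (RA) brings on granulocyte maturation. The knockout set comprised 2 libraries of LSD1 knockout cells (KO) and 2 of wild-type cells (WT), neither of them treated. The treatment set comprised 1 library each of cells kept for 24 h in MC_2580, an inhibitor of LSD1 per the labels, in 0.01 uM RA, in 1 uM RA, in MC_2580 together with 0.01 uM RA (the combination), or in the vehicle DMSO. The labels give no dose for MC_2580, do not say how many knockout clones were used (the knockout table calls both KO libraries KO2), and do not say that replicates were separate cultures, so a p-value here speaks only to the spread among these libraries, which may be technical.

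Chromatin enzymes write, erase or read marks on histones and DNA. Methyltransferases of the Polycomb, SUV39 and SETDB families deposit repressive histone methylation, acetyltransferases such as EP300 open chromatin, and histone deacetylases act inside corepressor complexes built on NCOR1, SIN3A or the NuRD subunits. In promyelocytic leukaemia PML-RARA brings NCOR1, HDAC3 and other repressors to retinoic acid target genes, and LSD1 itself belongs to deacetylase complexes and is found with NuRD.

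KDM1A encodes LSD1 and is listed as AOF2. It stood at 14.0 and 16.8 FPKM in KO cells against 49.8 and 66.6 FPKM in WT cells (log2 difference -1.84, SE 0.23, limma adjusted p = 0.158). Each library had 11974 to 13365 loci at 1 FPKM or more. The spacing of low values put the depth per FPKM at 1.04 and 1.35 times that of WT 1 in KO 1 and KO 2 and at 1.66 times in WT 2, and at 0.735 to 0.884 times that of DMSO in the 4 treated libraries. The sources used here do not give read totals. Of 10 markers of promyelocytic cells 8 reached 1 FPKM, while ELANE and KIT stayed under 1 FPKM in all 9 libraries. The summed FPKM of 10 granulocyte maturation genes was 542 and 1039 in KO cells against 113 to 165 in WT cells, and 373 with MC_2580, 1917 with RA 0.01 uM, 2491 with RA 1 uM and 5077 with the combination against 90.8 with DMSO. The summed promyelocytic markers were 5926 to 6675 in KO cells against 5619 to 6285 in WT cells, and 7121, 4046, 4198 and 4009 with MC_2580, RA 0.01 uM, RA 1 uM and the combination against 5803 with DMSO. The lower sums do not describe the typical marker. Of 8 compared, 3 were higher and 2 lower at 1.5-fold with RA 0.01 uM, with RA 1 uM and with the combination against DMSO. Their median log2 differences were 0.36, 0.26 and 0.18. The fibroblast, epithelial and endothelial sum was 25.5, 52.0 and 45.7 with MC_2580, RA 0.01 uM and RA 1 uM against 20.1 with DMSO. COL1A2, COL3A1 and CDH5 were under 1 FPKM in all libraries. The combination sum, 7.03, leaves out a listed gene without a value in that library, so it is not comparable. In each of these sums a gene without a value in a library adds nothing, so the sums of 1 list may hold different genes. The granulocyte genes that could be compared with DMSO numbered 8 with MC_2580, 8 with RA 0.01 uM, 7 with RA 1 uM and 9 with the combination. In the knockout set the fibroblast, epithelial and endothelial sum was 18.1 to 19.6 in KO cells against 19.5 to 20.5 in WT cells. The summed T and B cell markers were 213 to 261 in KO cells against 84.8 to 135 in WT cells. The part of these sums in the comparisons below was not tested. In bulk RNA a shift in the mix of cells cannot be told apart from a change of RNA per cell.

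Most of the enzymes were expressed, with a median near that of other expressed genes. In the knockout set the median of their mean levels was 14.1 FPKM, against 13.6 FPKM over 9785 protein-coding genes at 1 FPKM or more. Over all libraries the median of the members' mean levels was 16.1 FPKM, 36 members were at 5 FPKM or more in every library, and 7 averaged more than 50 FPKM. In 23 of the 45 members with a value in all libraries the highest library was at least 2 times the lowest. This range spans the knockout and treatment sets, and the share over all genes was not counted. The members' median log2 difference of DMSO from the WT mean was 0.30. PRMT1, the main asymmetric arginine methyltransferase, was the highest at a mean of 238 FPKM, followed by the maintenance DNA methyltransferase DNMT1 at 149 FPKM and the NuRD subunit MTA2 at 80.0 FPKM. HDAC11, the single class IV deacetylase, was the lowest at 0.455 FPKM, and HDAC9 the next lowest at 2.53 FPKM. Levels spread widely within families: the class IIa deacetylases ran up to a mean of 15.5 FPKM for HDAC7, and the Polycomb methyltransferase EZH2 averaged 51.3 FPKM where its paralog EZH1 averaged 10.2 FPKM.

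**Figure D1:**
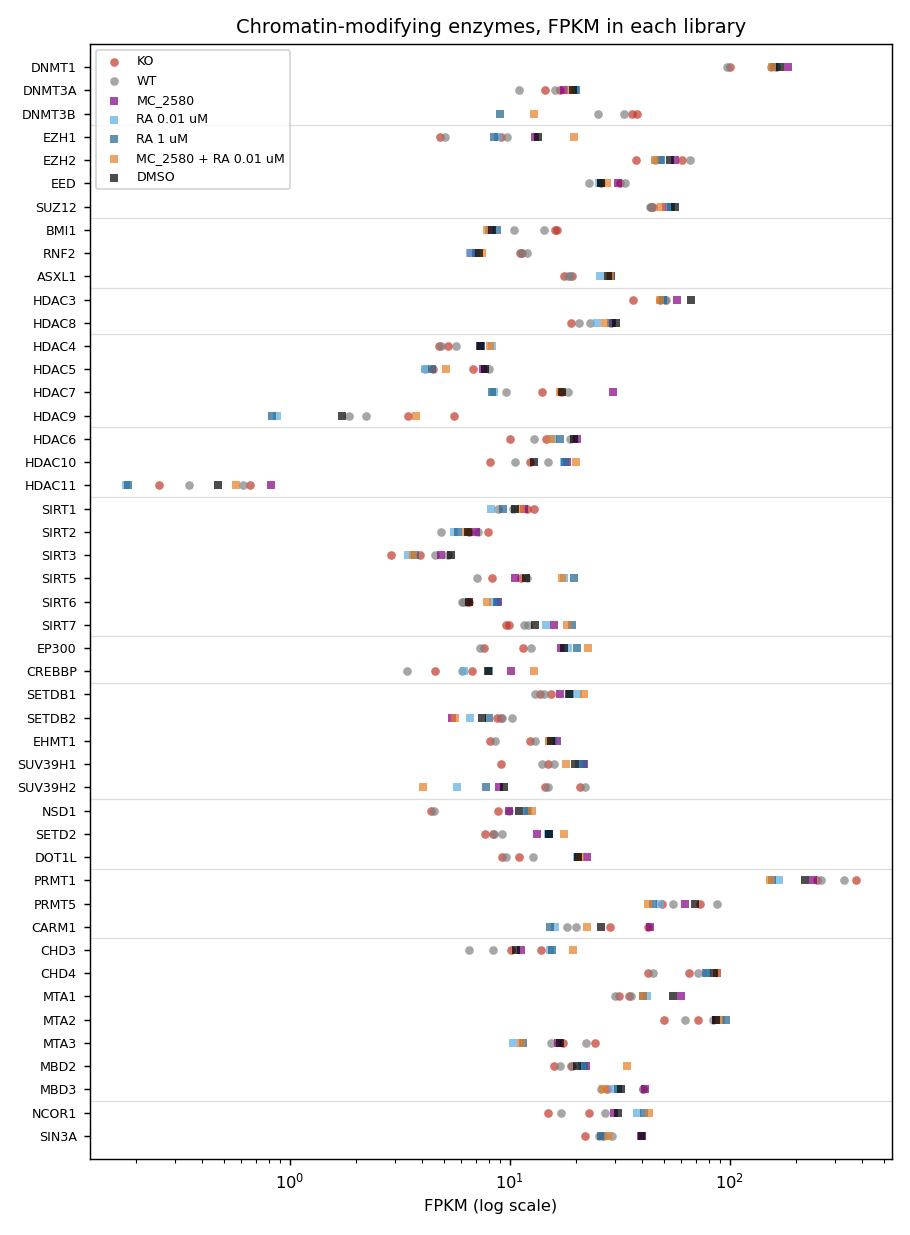
FPKM of each member (log axis) in each library, with circles for the KO and WT libraries and squares for the treatment libraries; grey lines part the enzyme classes. PRMT1 and DNMT1 lie farthest right and HDAC11 alone lies under 1 FPKM in every library.

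In KO against WT cells no member was called. The limma test with Benjamini-Hochberg adjustment over all loci called 0 of 46 members, where it called 15 of 13157 loci, 0.114% (0.0608% higher and 0.0532% lower). Only CARM1 and HDAC9 had an unadjusted p under 0.05, while 7.16% of all loci did, and the authors' deposited table called 0 members in both of its KO against WT tests, where it called 0.629% of protein-coding genes for replicate 1 and 0.497% for replicate 2. The median log2 difference of the members was -0.03, against -0.02 over protein-coding genes. Within 0.25 log2 of WT lay 33 of 46 members, a share that was not counted over all loci. The SE of a member's log2 difference was 0.14 to 0.50, with a median of 0.26. Differences of that size, and also well beyond it, went uncalled with 2 libraries per group. KDM1A itself, at -1.84 log2 (SE 0.23), had a limma adjusted p of 0.158. The lack of a call therefore does not show that a member was unchanged.

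Both KO values lay above both WT values for 7 members (15.2%; all loci 17.9%) and below them for 5 members (10.9%; all loci 16.1%), shares close to or under the background. The 7 were CARM1, HDAC9, CHD3, BMI1, DNMT3B, SIRT1 and SIRT6, and the 5 were SIRT3, HDAC3, SIRT7, SETD2 and SETDB2. A 1.5-fold difference was reached by 3 members above WT (9.55% of all loci) and by 0 below (6.70% of all loci).

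**Figure D2:**
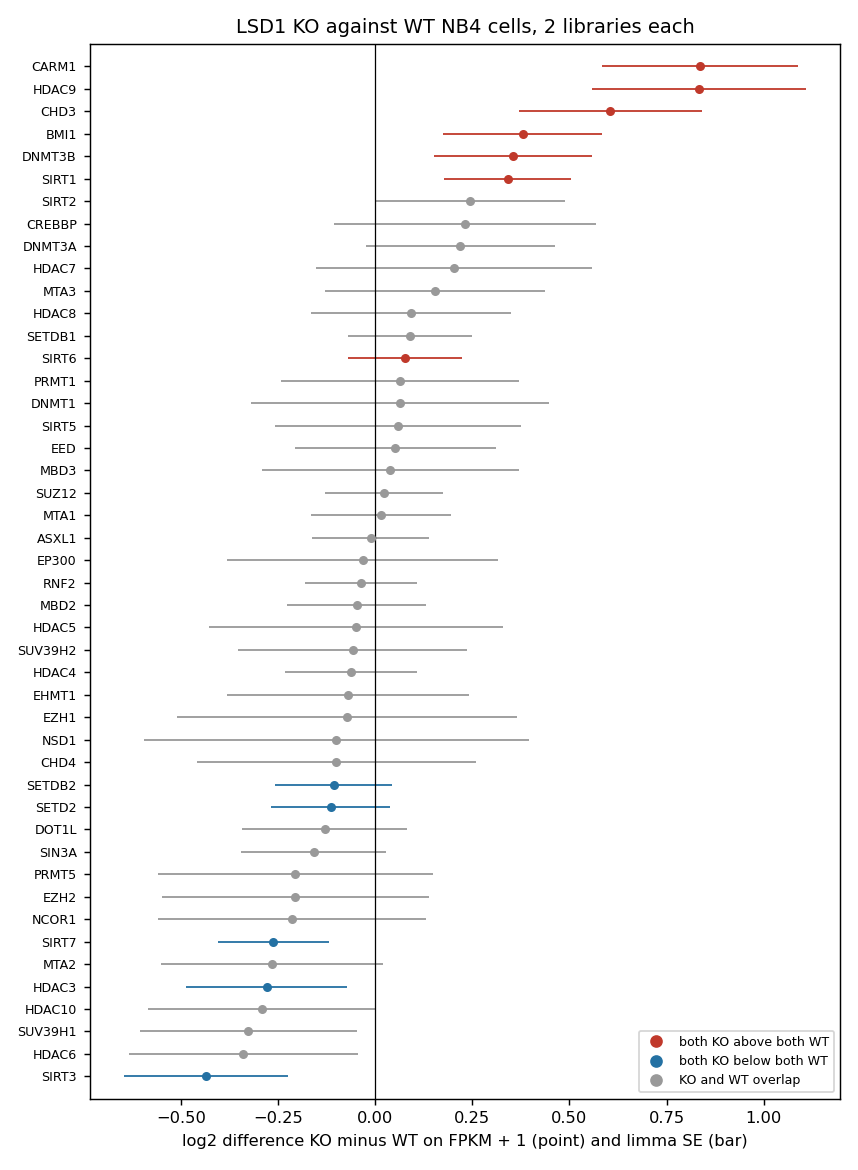
Log2 difference of KO minus WT on FPKM + 1 (points) with the limma standard error (bars) for the 46 members tested, sorted by size; colour marks whether the 2 KO and 2 WT values overlap. CARM1, HDAC9 and CHD3 lie at the top between 0.60 and 0.84, and no member passed the adjusted threshold.

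The treatments have 1 library each, so their differences carry no test and are described by size, at 2-fold and at 1.5-fold on FPKM + 1. For some members the differences between libraries of 1 group, KO or WT, are given beside them. Each is 1 pair of untreated libraries from the knockout set and does not measure a gene's spread, so exceeding it is not a test. At 2-fold, MC_2580 against DMSO held 0 members (0.741% of protein-coding genes higher and 0.0104% lower), RA 0.01 uM 0 members (4.87% higher, 2.78% lower), RA 1 uM 0 members (6.50% higher, 2.70% lower), and the combination 1 member lower (9.36% higher, 3.42% lower). The combination against RA 0.01 uM held 2 members higher (4.61% of protein-coding genes) and 0 lower (0.358%). The combination against MC_2580 held 0 (7.87% higher, 3.32% lower), and RA 1 uM against RA 0.01 uM held 0 (0.753% higher, 0.178% lower). In the RA and combination comparisons with DMSO the share of members past 2-fold was thus under the background share, a difference that was not tested.

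At 1.5-fold, MC_2580 against DMSO had 2 members higher and 0 lower of 44, with 2.68% and 0.313% of protein-coding genes. RA 0.01 uM against DMSO had 0 members higher and 5 lower of 45, with 9.41% and 7.94% of protein-coding genes, and RA 1 uM had 1 higher and 6 lower, with 12.2% and 8.08%. The combination against DMSO had 5 members higher and 2 lower, with 16.1% and 11.6% of protein-coding genes. These comparisons share the DMSO library. The combination against RA 0.01 uM had 5 members higher and 0 lower (10.4% and 2.49%), and against MC_2580 it had 3 higher and 5 lower of 44 (13.8% and 10.9%).

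The 2 RA doses gave almost the same levels, as 40 of 44 members differed by less than 0.25 log2 between RA 1 uM and RA 0.01 uM and 0 reached 1.5-fold in either direction (2.44% of protein-coding genes higher, 0.711% lower). Their median absolute log2 difference between the RA doses was 0.07, beside 0.10 over protein-coding genes. Between libraries of 1 group the spread was wider, at 0.41 for KO 1 against KO 2 and 0.39 for WT 1 against WT 2. Protein-coding genes had 0.30 in both pairs. The other treatment comparisons of the members also lay below the same-group values. They ran from 0.12 for MC_2580 against DMSO to 0.30 for the combination against MC_2580. Over protein-coding genes they ran from 0.13 for MC_2580 against DMSO to 0.34 for the combination against DMSO. That value, and 0.31 for the combination against MC_2580, lay above the 0.30 of protein-coding genes in the same-group pairs.

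**Figure D3:**
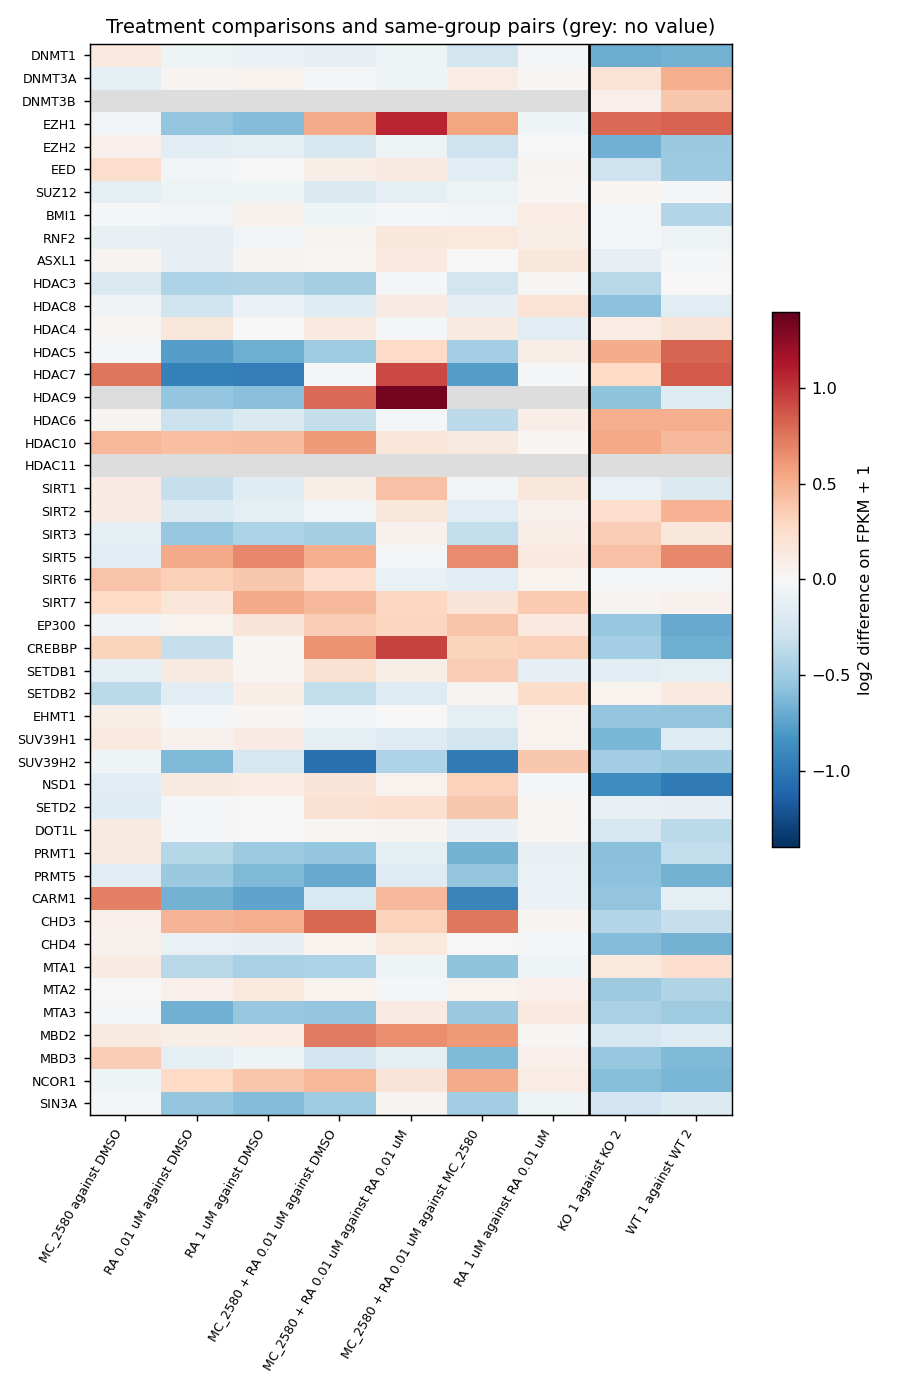
Log2 differences on FPKM + 1 for each member (rows) in the 7 treatment comparisons and, right of the black line, between the 2 libraries of KO and of WT; grey marks members without a value or under 1 FPKM. HDAC7 and CARM1 are red with MC_2580 and blue with both RA doses, and the column of the RA doses against each other is nearly white.

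Among the arginine methyltransferases, CARM1 had the largest difference in KO against WT and in MC_2580 and each RA dose against DMSO, and the smallest in the combination against DMSO. CARM1 methylates arginines of histone H3 and of coactivators such as EP300. It stood at 28.4 and 42.3 FPKM in KO cells (mean 35.4 ± 9.80, SD, n = 2) against 18.2 and 19.9 FPKM in WT cells (19.0 ± 1.22, n = 2). Both KO libraries were above both WT libraries, the log2 difference was 0.84 (SE 0.25), and the limma adjusted p was 0.624. The log2 difference was 0.56 without KO replicate 2 and 1.11 without KO replicate 1, with 0 loci of any kind called in either case.

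With MC_2580 CARM1 was at 43.2 FPKM, with RA 0.01 uM at 16.1, with RA 1 uM at 15.2 and with the combination at 22.3, against 26.0 FPKM with DMSO. The MC_2580 library was the highest of the 5 and both RA libraries the lowest. The log2 difference from DMSO was 0.71 with MC_2580, -0.66 with RA 0.01 uM, -0.74 with RA 1 uM and -0.21 with the combination, and the combination lay -0.92 from MC_2580. Each of these apart from the combination against DMSO exceeded the differences between libraries of 1 group, which were 0.56 in KO and 0.12 in WT. The authors' deposited table called CARM1 in MC_2580 against RA 0.01 uM and against RA 1 uM, and not against DMSO.

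The CARM1 locus (chromosome 19, 10843253 to 10900357, build hg18) also overlaps the neighbouring YIPF2, a Golgi membrane protein gene, and the labels do not state a stranded library, so reads of the 2 genes may not be fully separated. YIPF2 stood at 28.9 and 31.7 FPKM in KO cells against 20.9 and 24.0 in WT cells. In the treated cells it was at 22.4 with MC_2580, 22.4 with RA 0.01 uM, 23.4 with RA 1 uM and 22.1 with the combination against 19.1 with DMSO, without the MC_2580 peak of CARM1. CARM1 and the deacetylase HDAC7 were the 2 members past 1.5-fold above DMSO with MC_2580, and both were past 1.5-fold below it with each RA dose. By order alone, whatever the size or level, 13 members had MC_2580 above DMSO above both RA doses, HDAC11 among them. The share of protein-coding genes with that order was not counted. The CARM1 and HDAC7 promoters are printed here from RefSeq on GRCh38.p14, as the 250 bases before the first listed start, sense strand, 5′ to 3′. Capitals mark GC boxes, the letters GGGCGG or their complement CCGCCC, which 42.6% of 35116 RefSeq promoters and 26 of the 44 members with a listed promoter hold.
CARM1, chr19:10871303-10871552, plus strand: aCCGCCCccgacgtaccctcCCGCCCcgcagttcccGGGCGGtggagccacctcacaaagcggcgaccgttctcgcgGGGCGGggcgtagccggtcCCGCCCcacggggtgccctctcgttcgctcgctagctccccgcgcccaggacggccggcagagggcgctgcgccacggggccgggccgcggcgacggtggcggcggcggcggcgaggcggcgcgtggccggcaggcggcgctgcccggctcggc
HDAC7, chr12:47819904-47820153, minus strand: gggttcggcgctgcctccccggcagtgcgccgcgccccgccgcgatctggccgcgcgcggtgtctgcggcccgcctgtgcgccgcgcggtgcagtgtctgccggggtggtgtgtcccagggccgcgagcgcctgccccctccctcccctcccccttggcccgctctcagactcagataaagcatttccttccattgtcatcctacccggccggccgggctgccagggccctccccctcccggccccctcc
The CARM1 stretch holds 5 GC boxes and is 81.6% G and C, and the HDAC7 stretch holds 0 and is 75.6% G and C, against a median of 58.0% over all promoters. The core of retinoic acid receptor sites, AGGTCA, searched on both strands, is in neither stretch, in 2 of 44 member promoters and in 12.1% of all promoters. A match or its absence is a description of these letters only.

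The other arginine methyltransferases were lower with RA and with the combination. PRMT5, which makes symmetric dimethylarginine, was at 62.2 FPKM with MC_2580, 48.1 with RA 0.01 uM, 44.9 with RA 1 uM and 42.3 with the combination, against 69.7 FPKM with DMSO. All 4 treated libraries were below DMSO, by -0.71 log2 with the combination, where the differences within KO and within WT were -0.58 and -0.66. PRMT1 was at 240.0 FPKM with MC_2580, 167 with RA 0.01 uM, 155 with RA 1 uM and 152 with the combination, against 221 FPKM with DMSO.

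PRMT1 in the combination was -0.66 log2 from MC_2580 and -0.54 from DMSO. In the knockout set PRMT1 stood at 249 and 374 FPKM in KO cells against 259 and 329 in WT cells (0.06, SE 0.31), and PRMT5 at 48.9 and 73.5 against 54.9 and 87.3 (-0.21, SE 0.35). The KO and WT values overlapped for both.

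Among the H3K9 methyltransferases, which mark silent chromatin, SUV39H2 was the member with the lowest combination value relative to DMSO. It was at 8.97 FPKM with MC_2580, 5.76 with RA 0.01 uM, 7.80 with RA 1 uM and 4.03 with the combination, against 9.39 FPKM with DMSO. The combination library was the lowest, by -1.05 log2 from DMSO, -0.99 from MC_2580 and -0.43 from RA 0.01 uM, and SUV39H2 was the 1 member past 2-fold against DMSO. KO cells had 14.5 and 20.8 FPKM against 15.0 and 21.9 FPKM in WT cells, a log2 difference of -0.06 (SE 0.29).

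The SUV39H2 locus is 2.96 times as long as the RefSeq gene and takes in DCLRE1C, a DNA repair nuclease gene, listed at 11.8 FPKM with the combination against 8.82 with DMSO, the opposite direction. SUV39H1, its paralog, stayed between 18.0 FPKM with the combination and 21.7 with MC_2580, with 19.7 with DMSO. SETDB1, EHMT1 and SETDB2 reached 1.5-fold in 0 of the treatment comparisons. SETDB2 was at 5.48, 6.56, 8.03 and 5.66 FPKM with MC_2580, RA 0.01 uM, RA 1 uM and the combination, against 7.44 with DMSO. SETDB2 was 9.11 and 8.75 FPKM in KO cells against 10.2 and 9.20 in WT cells (-0.11, SE 0.15, limma adjusted p = 0.937). It was -0.04 without WT replicate 1 and -0.17 without WT replicate 2, and its locus is 3.62 times the length of the RefSeq gene.

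The H3K36 and H3K79 methyltransferases NSD1, SETD2 and DOT1L reached 1.5-fold in 0 treatment comparisons. SETD2, which makes H3K36 trimethylation, stood at 7.73 and 8.40 FPKM in KO cells against 8.43 and 9.19 in WT cells (-0.11, SE 0.15, limma adjusted p = 0.928), and -0.06 without KO replicate 1 and also without WT replicate 2. DOT1L, the H3K79 methyltransferase, was within 20.2 and 22.3 FPKM in all 4 treated libraries against 20.4 with DMSO. NSD1, which methylates H3K36, stayed between 9.87 FPKM with MC_2580 and 12.6 with the combination, with 11.0 with DMSO.

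In Polycomb repressive complex 2, which methylates H3K27, EZH1 was the only catalytic subunit or partner past 1.5-fold. EZH1 was at 13.0 FPKM with MC_2580, 8.87 with RA 0.01 uM, 8.45 with RA 1 uM and 19.6 with the combination, against 13.4 FPKM with DMSO. Both RA libraries were the lowest and the combination was the highest of the 5, 1.06 log2 above RA 0.01 uM. That exceeded the differences between libraries of 1 group, which were 0.80 in KO and 0.82 in WT, while the difference of RA 1 uM from DMSO, -0.61, did not.

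EZH2, the catalytic subunit of dividing cells, was at 56.1 FPKM with MC_2580, 48.2 with RA 0.01 uM, 48.5 with RA 1 uM and 45.8 with the combination, against 53.6 FPKM with DMSO. The core subunits EED and SUZ12 differed by at most 0.25 log2 from DMSO in any treated library. In the knockout set EZH2 stood at 37.5 and 60.3 FPKM in KO cells against 45.7 and 66.1 in WT cells, and the groups overlapped for all 4 members.

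The Polycomb repressive complex 1 members and ASXL1 lay within 0.25 log2 of DMSO in all 4 treated libraries. BMI1, which stimulates the ubiquitin ligase RNF2, was 7.89 to 8.70 FPKM in the treated libraries against 8.27 with DMSO. It stood at 16.0 and 16.4 FPKM in KO cells against 10.5 and 14.2 in WT cells, a log2 difference of 0.38 (SE 0.20, limma adjusted p = 0.830) that was 0.18 without WT replicate 1 and 0.58 without WT replicate 2. RNF2 was 11.1 and 11.4 FPKM in KO cells against 11.2 and 11.9 in WT cells, and 6.57 to 7.47 in the treated libraries against 7.22 with DMSO. ASXL1, a partner of the histone H2A deubiquitinase BAP1, was 17.6 and 19.2 FPKM in KO cells against 18.4 and 18.7 in WT cells. It was 25.8 to 28.9 FPKM in the treated libraries against 28.0 with DMSO.

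Of the DNA methyltransferases, the de novo enzyme DNMT3B was 38.0 and 36.1 FPKM in KO cells against 32.9 and 25.1 in WT cells (log2 difference 0.35, SE 0.20, limma adjusted p = 0.830). Both KO values were above both WT values, by 0.17 without WT replicate 2 and 0.54 without WT replicate 1. In the treatment table DNMT3B has values only with RA 1 uM, 9.03 FPKM, and with the combination, 12.8 FPKM. DNMT1 was 185 FPKM with MC_2580, 162 with RA 0.01 uM, 159 with RA 1 uM and 155 with the combination, against 168 with DMSO, and DNMT3A was 17.7 to 20.0 against 19.3. DNMT1 and DNMT3A thus lay within 0.25 log2 of DMSO in all 4 treated libraries.

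Of the acetyltransferases, CREBBP, a coactivator of nuclear receptors, was at 10.1 FPKM with MC_2580, 6.18 with RA 0.01 uM, 8.07 with RA 1 uM and 12.8 with the combination, against 7.96 FPKM with DMSO. The combination was the highest library, 0.95 log2 above RA 0.01 uM and 0.63 above DMSO, while the same-group differences were -0.47 in KO and -0.69 in WT. Only the difference from RA 0.01 uM exceeded both. Its paralog EP300 was at 17.1, 18.3, 20.2 and 22.7 FPKM with MC_2580, RA 0.01 uM, RA 1 uM and the combination, against 17.7 with DMSO, and reached 1.5-fold in 0 comparisons. In KO against WT cells both overlapped, CREBBP at 4.56 and 6.72 against 3.40 and 6.07 FPKM and EP300 at 7.61 and 11.4 against 7.29 and 12.5 FPKM.

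The class IIa deacetylases, which shuttle to the cytoplasm and recruit NCOR1 complexes more than they deacetylate, include HDAC7, the member farthest above DMSO with MC_2580 and farthest below it with either RA dose. HDAC7 was at 29.5 FPKM with MC_2580, 8.44 with RA 0.01 uM, 8.33 with RA 1 uM and 16.9 with the combination, against 17.2 FPKM with DMSO. MC_2580 was the highest library and both RA libraries the lowest, with log2 differences from DMSO of 0.75, -0.95 and -0.96, and the combination lay at -0.02. The combination was 0.92 above RA 0.01 uM and -0.77 from MC_2580.

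Within WT the replicates of HDAC7 differed by 0.86 log2, at 18.3 and 9.62 FPKM, more than the difference of MC_2580 from DMSO and less than those of both RA doses. KO cells had 17.1 and 14.0 FPKM, between the 2 WT values, and the log2 difference was 0.20 (SE 0.36). The authors' deposited table called HDAC7 in MC_2580 against RA 0.01 uM and against RA 1 uM, as it did CARM1. It also called HDAC11, at 0.820 FPKM with MC_2580 against 0.180 with RA 0.01 uM and 0.183 with RA 1 uM, levels under the 1 FPKM minimum used here. These were the 3 members called in each of those tests, which called 6.58% and 6.98% of protein-coding genes.

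HDAC9 was at 0.873 FPKM with RA 0.01 uM, 0.826 with RA 1 uM and 3.74 with the combination, against 1.73 FPKM with DMSO. Among the treatment libraries with a value, which leave out MC_2580, the combination was the highest and both RA libraries the lowest. HDAC9 with the combination was 1.34 log2 above RA 0.01 uM, and both RA values were under 1 FPKM. In KO cells it was 3.43 and 5.56 FPKM (4.49 ± 1.51, SD, n = 2) against 1.85 and 2.21 FPKM in WT cells (2.03 ± 0.255, n = 2). Both KO libraries were above both WT libraries (0.83, SE 0.28), and the limma adjusted p was 0.662. The log2 difference was 0.55 without KO replicate 2. The HDAC9 locus is 0.548 times the length of the RefSeq gene, and 2 other listed genes overlap it, 0 of them protein-coding.

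The authors' deposited table called HDAC9 in the combination against RA 0.01 uM and against RA 1 uM, in tests that called 3.29% and 2.61% of protein-coding genes, and no other member there. HDAC5 was at 7.54 FPKM with MC_2580, 4.10 with RA 0.01 uM, 4.42 with RA 1 uM and 5.15 with the combination, against 7.71 FPKM with DMSO. The log2 differences of RA from DMSO, -0.77 and -0.68, were smaller than the 0.82 between the WT replicates, 8.002 and 4.10 FPKM. HDAC4 was 7.40 to 8.33 FPKM in the treated libraries against 7.34 with DMSO.

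**Figure D4:**
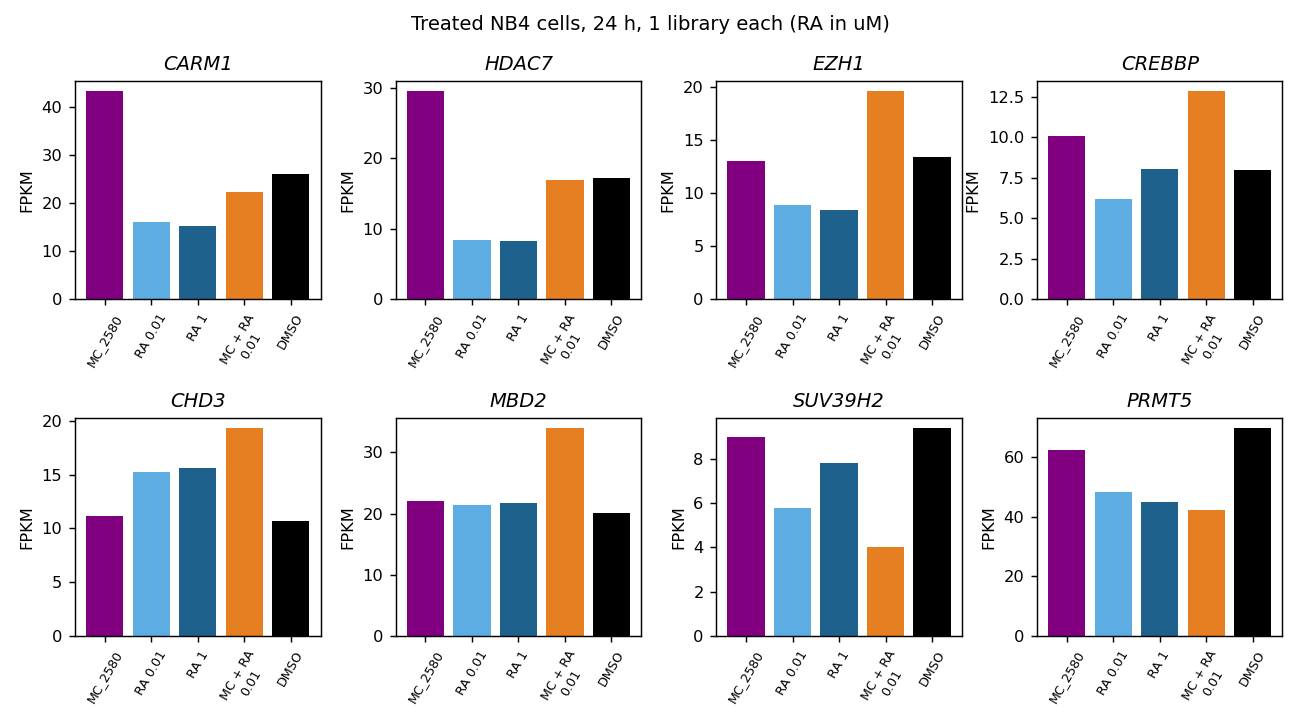
FPKM (bars from 0) of 8 members in the 4 treated libraries and DMSO, 1 library each, so no error is shown. CARM1 and HDAC7 are highest with MC_2580 and lowest with RA, EZH1, CREBBP, CHD3 and MBD2 are highest with the combination, and SUV39H2 and PRMT5 are lowest with the combination.

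The class I deacetylase HDAC3, the catalytic subunit of NCOR1 complexes, was 36.5 and 48.0 FPKM in KO cells against 50.9 and 51.1 in WT cells. Both KO values lay below both WT values (-0.28, SE 0.21, limma adjusted p = 0.830). The log2 difference was -0.09 without KO replicate 1 and -0.47 without KO replicate 2. With MC_2580 it was at 57.7 FPKM, with RA 0.01 uM at 49.1, with RA 1 uM at 49.8 and with the combination at 48.1, against 66.8 FPKM with DMSO, the highest of the 5 libraries. HDAC8, the X-linked class I enzyme, was 24.8 to 29.3 FPKM in treated cells against 30.4 with DMSO.

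HDAC10, a polyamine deacetylase of class IIb, was above DMSO in all 4 treated libraries, at 18.2 FPKM with MC_2580, 17.6 with RA 0.01 uM, 17.9 with RA 1 uM and 20.0 with the combination, against 12.9 FPKM with DMSO. The combination reached 0.59 log2, beyond the 0.55 and 0.46 between libraries of 1 group. In KO cells HDAC10 was 12.4 and 8.16 FPKM against 14.9 and 10.6 in WT cells, with overlap. HDAC6, the tubulin deacetylase, was 15.4 to 20.2 FPKM in the treated libraries against 19.6 with DMSO.

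Of the sirtuins, NAD-dependent deacylases, SIRT5 was the 1 past 1.5-fold in a treatment comparison. SIRT5, which removes succinyl and related groups mainly in mitochondria, was at 10.6 FPKM with MC_2580, 17.6 with RA 0.01 uM, 19.5 with RA 1 uM and 17.3 with the combination, against 11.9 FPKM with DMSO. The 3 libraries with RA were the highest, by 0.53, 0.67 and 0.51 log2 from DMSO, and the WT replicates also differed by 0.67, at 11.9 and 7.12 FPKM. SIRT7, a nucleolar sirtuin, was at 15.9, 14.7, 19.1 and 18.1 FPKM with MC_2580, RA 0.01 uM, RA 1 uM and the combination, against 12.9 with DMSO, a log2 difference of 0.53 with RA 1 uM beside 0.04 and 0.06 between libraries of 1 group.

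SIRT3, the main mitochondrial deacetylase, was 3.92 and 2.87 FPKM in KO cells (3.40 ± 0.741, SD, n = 2) against 5.25 and 4.58 in WT cells (4.92 ± 0.471, n = 2). Both KO values were below both WT values, with the lowest log2 difference of the 46 members, -0.44 (SE 0.21, limma adjusted p = 0.825), which was -0.26 without KO replicate 2. SIRT3 was also below DMSO in all 4 treated libraries, at 4.86 FPKM with MC_2580, 3.43 with RA 0.01 uM, 3.71 with RA 1 uM and 3.63 with the combination, against 5.38 FPKM with DMSO. Its locus takes in the neighbouring RIC8A, listed at 18.0 and 23.9 FPKM in KO cells against 19.5 and 24.6 in WT cells.

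SIRT7 was 9.87 and 9.59 FPKM in KO cells against 12.1 and 11.6 in WT cells (-0.26, SE 0.14, limma adjusted p = 0.830). SIRT1, which deacetylates histones and transcription factors, was 11.9 and 12.8 FPKM in KO cells against 8.82 and 10.3 in WT cells (0.34, SE 0.16, limma adjusted p = 0.819). For both the KO and WT values did not overlap. SIRT2 and SIRT6 reached 1.5-fold in 0 treatment comparisons.

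Among NuRD subunits, the remodelling ATPase CHD3 had the largest difference of the combination from DMSO. CHD3 was at 11.2 FPKM with MC_2580, 15.2 with RA 0.01 uM, 15.6 with RA 1 uM and 19.3 with the combination, against 10.6 FPKM with DMSO. The combination was the highest library, 0.80 log2 above DMSO and 0.74 above MC_2580, beyond the 0.41 and 0.32 between libraries of 1 group. The authors' deposited table called CHD3 in the combination against DMSO, the only member it called there, with 8.65% of protein-coding genes called.

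CHD3 was 10.1 and 13.8 FPKM in KO cells (11.9 ± 2.61, SD, n = 2) against 6.54 and 8.40 FPKM in WT cells (7.47 ± 1.31, n = 2). Both KO values were above both WT values (0.60, SE 0.24), and the limma adjusted p was 0.750. CHD4, its far more abundant paralog, was 42.6 and 65.3 FPKM in KO cells against 44.8 and 71.5 in WT cells and lay within 0.25 log2 of DMSO in all treated libraries. The log2 difference of CHD3 was 0.40 without KO replicate 2 and 0.45 without WT replicate 1.

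MBD2, the NuRD subunit that binds methylated DNA, was at 22.1 FPKM with MC_2580, 21.4 with RA 0.01 uM, 21.7 with RA 1 uM and 34.0 with the combination, against 20.2 FPKM with DMSO. The combination stood apart from the other 4 libraries, which lay within 2 FPKM of each other, by 0.73 log2 from DMSO, 0.65 from RA 0.01 uM and 0.60 from MC_2580. Within groups MBD2 differed by 0.24 in KO and 0.18 in WT. It was 15.9 and 19.0 FPKM in KO cells against 16.9 and 19.2 in WT cells, with overlap.

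MBD3, which takes the place of MBD2 in other NuRD complexes, was at 41.3 FPKM with MC_2580, 29.4 with RA 0.01 uM, 30.9 with RA 1 uM and 26.6 with the combination, against 32.2 with DMSO. The combination lay -0.61 log2 from MC_2580, beside same-group differences of -0.53 in KO and -0.62 in WT. MBD3 was 27.6 and 40.4 FPKM in KO cells against 26.0 and 40.5 in WT cells, with overlap. MTA3 was at 16.6 FPKM with MC_2580, 10.3 with RA 0.01 uM, 11.4 with RA 1 uM and 11.2 with the combination, against 17.0 FPKM with DMSO. The 3 libraries with RA were the lowest, -0.67 log2 from DMSO at 0.01 uM where the same-group differences were -0.46 and -0.50. MTA1 was also lower in those 3 libraries, at 42.0, 40.1 and 40.3 FPKM with RA 0.01 uM, RA 1 uM and the combination, against 55.1 with DMSO, under 1.5-fold. MTA2 was 86.7 to 96.2 FPKM in treated libraries against 86.8 with DMSO.

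The corepressor scaffolds stood on opposite sides of DMSO with RA. SIN3A was at 39.5 FPKM with MC_2580, 27.2 with RA 0.01 uM, 25.9 with RA 1 uM and 28.0 with the combination, against 40.0 FPKM with DMSO. NCOR1 was at 29.7 FPKM with MC_2580, 37.9 with RA 0.01 uM, 40.9 with RA 1 uM and 42.9 with the combination, against 30.9 FPKM with DMSO, under 1.5-fold. For SIN3A the 3 libraries with RA were the lowest, -0.61 log2 from DMSO at 1 uM against same-group differences of -0.26 and -0.19.

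The NCOR1 difference with the combination, 0.46, was smaller than its same-group differences of -0.59 and -0.63. KO and WT values overlapped for both scaffolds, with SIN3A at 22.0 and 26.6 FPKM in KO cells against 25.3 and 29.0 in WT cells, and NCOR1 at 14.9 and 22.9 against 17.2 and 27.2. The NCOR1 locus also takes in TTC19 and ZSWIM7.

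The members also differed between libraries of 1 group. In 31 of 46 members replicate 2 was above replicate 1 in both KO and WT (48.9% of protein-coding genes), and in 14 it was below in both (34.8%). NSD1 was 4.37 and 8.79 FPKM in KO 1 and KO 2, and 4.52 and 9.94 FPKM in WT 1 and WT 2.

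EZH1 went the other way, at 9.12 and 4.83 FPKM in KO 1 and KO 2 and 9.75 and 5.07 FPKM in WT 1 and WT 2. At 1.5-fold in both groups, 4 members were higher in replicate 2 (6.46% of protein-coding genes) and 1 was higher in replicate 1 (5.57%). The median difference of a 22-gene cell cycle list, replicate 1 minus replicate 2, was -0.69 in KO and -0.47 in WT, beside -0.24 and -0.16 for the members, and its part in these differences was not tested. The labels do not say that a replicate number marks a shared day or batch.

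**Figure D5:**
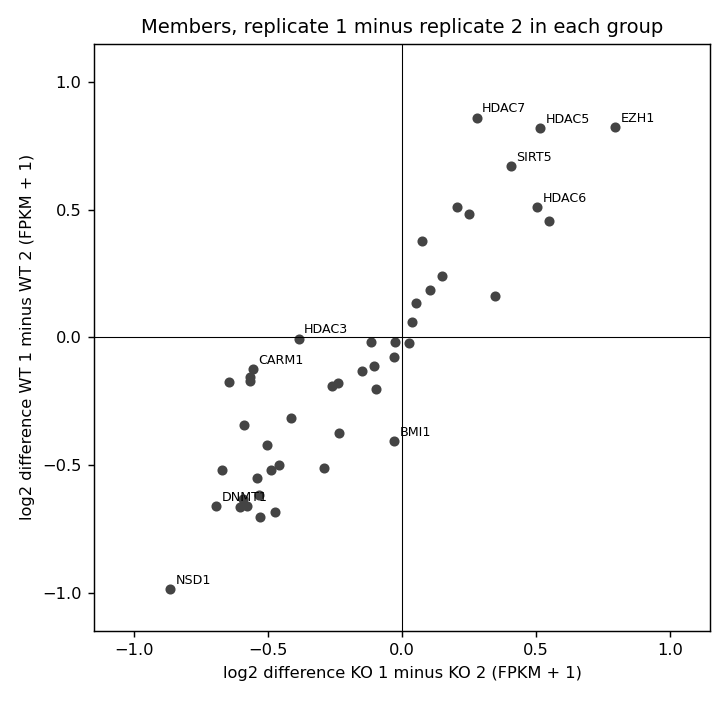
Log2 difference on FPKM + 1 of replicate 1 minus replicate 2 in KO (horizontal) and in WT (vertical), 1 point per member tested. Nearly all points lie in the lower left or upper right part, with NSD1 and EZH1 at the ends.

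Genes of the same machinery outside the list were described with the same fit. Of 18 lysine demethylases and TET enzymes tested, KDM1A among them, 0 were called in KO against WT by limma, as were 0 of 29 other writers and readers, 0 of 19 remodellers and 0 of 28 partner subunits, where 0.114% of all loci were called. Their median log2 differences were -0.01, -0.05, 0.01 and 0.08. In the combination against DMSO 3 demethylases or TET genes were higher and 4 lower at 1.5-fold of 18, 2 writers or readers higher and 2 lower of 29, 2 remodellers higher and 0 lower of 18, and 0 partners higher and 4 lower of 28, beside 16.1% of protein-coding genes higher and 11.6% lower.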

How the data were processed

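Total RNA of NB4 cells was made into libraries with the TruSeq V2 kit, per the labels' protocols, and sequenced. Expression values in both tables the authors deposited are FPKM in the layout of Cuffdiff, per the file headers. Genome build hg18 and the tools Cuffdiff, Cufflinks, TopHat2 2.0.10, TopHat 1.3.1 and CASAVA 1.8 are listed, per the submitters' processing notes, with no role or order. The annotation and the scaling between libraries are not given in the sources read. The authors' yes or no significance calls, deposited beside each test of 1 library against another, were read as other, non-numeric values.

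The 0.001 FPKM that the authors added in the knockout table was taken off. Treatment values of failed tests, listed at 0, were treated as missing (1039 loci with at least 1 missing library). The KO libraries were tested against WT with limma 3.58.1 (trend, R 4.3.3) on log2(FPKM + 1). Loci entered where 1 group averaged 1 FPKM or more, p-values were adjusted by Benjamini-Hochberg over all of them, and the threshold was an adjusted p of 0.05. The pseudocount of 1 understates changes of low genes. Treatments were described as log2((FPKM + 1)/(FPKM + 1)) for genes of at least 1 FPKM in 1 library compared. Protein-coding genes with 1 locus served as background. Named members were those past 1.5-fold in a treatment comparison (at most 5 each way). The 5 largest differences each way without overlap in KO against WT, and the highest and lowest of each class, were also named. Other members are given more briefly, some without FPKM values. The members and all lists were chosen with earlier results of these data known. Alternatives were other pseudocounts and filters, quantile normalization, protein-coding genes only, a replicate block, each library left out, a shift to a median of 0, a 1.5-fold threshold and the authors' calls. The fit was tested on simulated data. Promoters came from RefSeq (GRCh38.p14); locus coordinates are hg18. Tables and plots were made in Python 3.11.15 (numpy 2.4.6, pandas 2.3.3, matplotlib 3.10.9).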

Additional observations from a re-analysis of the deposited data

How the results depend on the processing

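In KO against WT, 0 members were called by limma under every alternative run; the number at an unadjusted p under 0.05, 2 as reported, was 0 to 2 without 1 of the libraries, 1 to 3 under the other pseudocount, filters, quantile normalization and protein-coding genes only, and 9 with the replicate block. Loci called numbered 15 as reported, 38 with a pseudocount of 0.1 FPKM, 0 without a filter (2059 at an unadjusted p under 0.05), 7 at a group mean of at least 5 FPKM, 59 among protein-coding genes only, and 0 in each fit that left out 1 library (654 to 801 unadjusted). With the replicate number as a block 0 loci were called (3198 unadjusted). Across 9968 protein-coding genes the differences between replicates 1 and 2 correlated at 0.855 between KO and WT (genes are not independent), but the labels do not say that numbers pair samples and there are only 2 pairs. The median log2 difference of the members, -0.03, ran between -0.09 and 0.09 as 1 library was left out, changing sign. At 1.5-fold in place of 2-fold, members counted were 2 for MC_2580, 5 for RA 0.01 uM, 7 for RA 1 uM and 7 for the combination against DMSO, 5 for the combination against RA 0.01 uM and 8 against MC_2580. A pseudocount of 0.1 FPKM gave 1, 1 and 2 members for RA 0.01 uM, RA 1 uM and the combination against DMSO and 1 for the combination against MC_2580, where 0, 0, 1 and 0 were reported. For the combination against RA 0.01 uM, 2 as reported, a 5 FPKM minimum and the authors' calls each gave 1, and HDAC9 there was 1.98 log2 with the smaller pseudocount against 1.34. The cause was not tested. Treatments have no replicates, and read totals are unknown, so counting error is not given.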
